A study of Mus musculus with 2 samples.

Results

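The replication-dependent histone genes are the clustered genes that encode the bulk histones of newly made chromatin. They were taken here as the protein-coding genes whose names start with Hist1h, Hist2h, Hist3h or Hist4h, which gave 67 of the 55450 mouse genes in the tables. Of these, 6 encode the linker histone H1, 18 encode H2A, 18 encode H2B, 12 encode H3 and 13 encode H4. The largest cluster held 54 of them on chromosome 13, and 10 lay on chromosome 3, 2 on chromosome 11 and 1 on chromosome 6. A further 3 genes with such a name had no protein-coding transcript and were left out. Total RNA had been sequenced from the hearts of 2 female mice aged 36 days, a hybrid labelled B6CASTF1/J, from 300 ng of RNA per library with ERCC spike-in transcripts added. The libraries form 1 group, called replicate 1 and replicate 2 below, and the labels call them biological replicates although both carry the same donor identifier. If that identifier means a shared source, the spread between the libraries may be technical. The design therefore gives levels and the match between both hearts, and no contrast between conditions.

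Histone octamers are built from H2A, H2B, H3 and H4, and H1 binds the linker DNA between them. Transcripts of the replication-dependent genes are made mainly in S phase and end, without a poly(A) tail, just after a conserved stem-loop that the stem-loop binding protein Slbp recognizes. Replacement variants such as H3f3a and H2afz are made throughout the cell cycle from ordinary polyadenylated transcripts, and they build up in tissues whose cells have stopped dividing. Libraries that start from poly(A) RNA largely miss transcripts without a tail, so total RNA is the usual material for measuring them.

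The stem-loop defines this class of transcripts and marks where their RNA ends, so it is shown for the highest genes of the families with a match and for H4 genes that carry other versions of it. Each is written 5′ to 3′ in DNA letters from the annotated transcripts of GENCODE M21, with the 16 bases of the stem and loop in capitals and up to 5 flanking bases in lower case.
Hist1h1c: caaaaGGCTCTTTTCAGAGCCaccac
Hist2h2aa2: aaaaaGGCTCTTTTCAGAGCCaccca
Hist1h2bg: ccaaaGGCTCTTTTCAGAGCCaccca
Hist1h3b: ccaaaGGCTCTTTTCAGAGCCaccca
Hist1h4h: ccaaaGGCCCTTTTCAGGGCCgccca
Hist2h4: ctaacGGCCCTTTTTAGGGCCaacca
Hist1h4j: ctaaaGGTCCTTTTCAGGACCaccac
On mm10, the capitals of Hist1h1c lie at chr13:23739512-23739527 on the plus strand. Those of Hist2h2aa2 lie at chr3:96239784-96239799 on the minus strand, and those of Hist1h2bg at chr13:23571843-23571858 on the plus strand. Hist1h3b has its stem-loop at chr13:23752820-23752835 and Hist1h4h at chr13:23531458-23531473, both on the plus strand. Hist2h4 has it at chr3:96262939-96262954 on the minus strand and Hist1h4j at chr13:21735437-21735452 on the plus strand.

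A perfectly paired stem-loop of this form (a 6-base stem of GG, 3 pyrimidines and T, and a 4-base loop, within 150 bases after the stop codon) was found in an annotated transcript of 46 of the 67 genes, or 68.7%. Of 20731 other genes with at least 40 bases after the stop codon, 9 had such a match, or 0.0434%. H2afx, the DNA damage variant of H2A, was among those 9. Of the 21 histone genes without a match, 16 had fewer than 40 annotated bases after the stop codon, too few for most of the matches seen elsewhere, which began 22 to 59 bases after it. The other 5 were Hist2h2be, Hist1h2bc, Hist1h2bq, Hist1h2br and Hist1h1a. Hist1h2bc has 742 bases after its stop codon and Hist2h2be has 2192. No match says only that these letters are not in this window.

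The first 60 coding bases of 5 H4 genes show how near the copies are to each other, which limits how reads can be assigned to them. Capitals mark bases that differ from Hist1h4h.
Hist1h4h: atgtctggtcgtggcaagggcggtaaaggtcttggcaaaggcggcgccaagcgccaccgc
Hist1h4m: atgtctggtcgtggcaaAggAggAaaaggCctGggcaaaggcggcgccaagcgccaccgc
Hist1h4d: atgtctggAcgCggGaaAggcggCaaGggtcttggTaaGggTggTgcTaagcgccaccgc
Hist2h4: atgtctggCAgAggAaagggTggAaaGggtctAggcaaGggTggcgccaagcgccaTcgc
Hist4h4: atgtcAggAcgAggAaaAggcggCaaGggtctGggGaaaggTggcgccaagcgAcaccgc
These windows lie at chr13:23531115-23531174 for Hist1h4h, chr13:21811784-21811843 for Hist1h4m, chr13:23581602-23581661 for Hist1h4d, chr3:96263245-96263304 for Hist2h4 and chr6:136804320-136804379 for Hist4h4. Over the whole coding sequence, Hist1h4m matched Hist1h4h at 96.8% of bases, Hist1h4d at 93.9%, Hist2h4 at 90.1% and Hist4h4 at 86.2%. Between genes whose coding sequences have equal lengths, the median identity was 96.4% for H2A, 95.7% for H2B, 97.2% for H3 and 93.9% for H4. Hist1h4m and Hist1h4n had identical coding sequences. Over whole annotated transcripts, the median gene had 41.5% of its 31-base words in no other gene, and 22 of the 67 genes had under 25%.

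The total of expected counts was 39053339 in replicate 1 and 38332179 in replicate 2. Of these, the 67 histone genes had 15425 and 13808, or 0.0395% and 0.0360%. Levels are given as TPM, which divides reads by transcript length and scales each library to the same total, and were available from 2 quantifications of the same reads. The first came from alignments to the transcriptome and is used unless stated otherwise, and the second assigned reads to a transcript index. The 8 cardiomyocyte markers summed to 31181 TPM in replicate 1 and 30960 TPM in replicate 2, and all 8 were detected. Red-cell markers stood apart: the 7 erythroid genes summed to 36364 TPM in replicate 1 and 11883 TPM in replicate 2. All 7 were called higher in replicate 1 by the test described below, against 0.983% of all genes tested, and none was at 0. Brown adipocyte markers summed to 94.6 TPM in replicate 1 and 29.7 TPM in replicate 2, with Ucp1 and Dio2 of the 3 called higher. The 4 endothelial markers, the 5 fibroblast markers and the 4 of 9 leukocyte markers with enough counts for the test gave no call, with median log2 ratios of 0.04, 0.05 and -0.11 over these genes, and the 3 testis germ cell markers were at 0 in both libraries. In bulk tissue, more or fewer cells of a type and more or less RNA per cell cannot be told apart.

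Most of the histone genes were detected in heart, and the 10 highest held 58.4% of the summed TPM in replicate 1 and 60.8% in replicate 2. At a threshold of 1 TPM in each library, 54 of the 67 were detected, against 50.4% of the 21888 nuclear protein-coding genes. The second quantification detected 53, against 51.6%, and 48 passed in both. Summed over the genes, the level was 758 TPM in replicate 1 and 678 TPM in replicate 2, or 718 ± 56.9 TPM (SD, n = 2, as for all errors below). The second quantification gave 820 TPM and 755 TPM. Levels of the 56 genes with a mean of at least 1 TPM spanned 91.9-fold. The 3 highest genes, Hist1h4h, Hist2h2aa2 and Hist1h1c, held 36.8% of the summed level in replicate 1 and 39.9% in replicate 2. The median gene stood at 5.42 TPM, against 1.21 TPM for nuclear protein-coding genes.

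**Figure D1:**
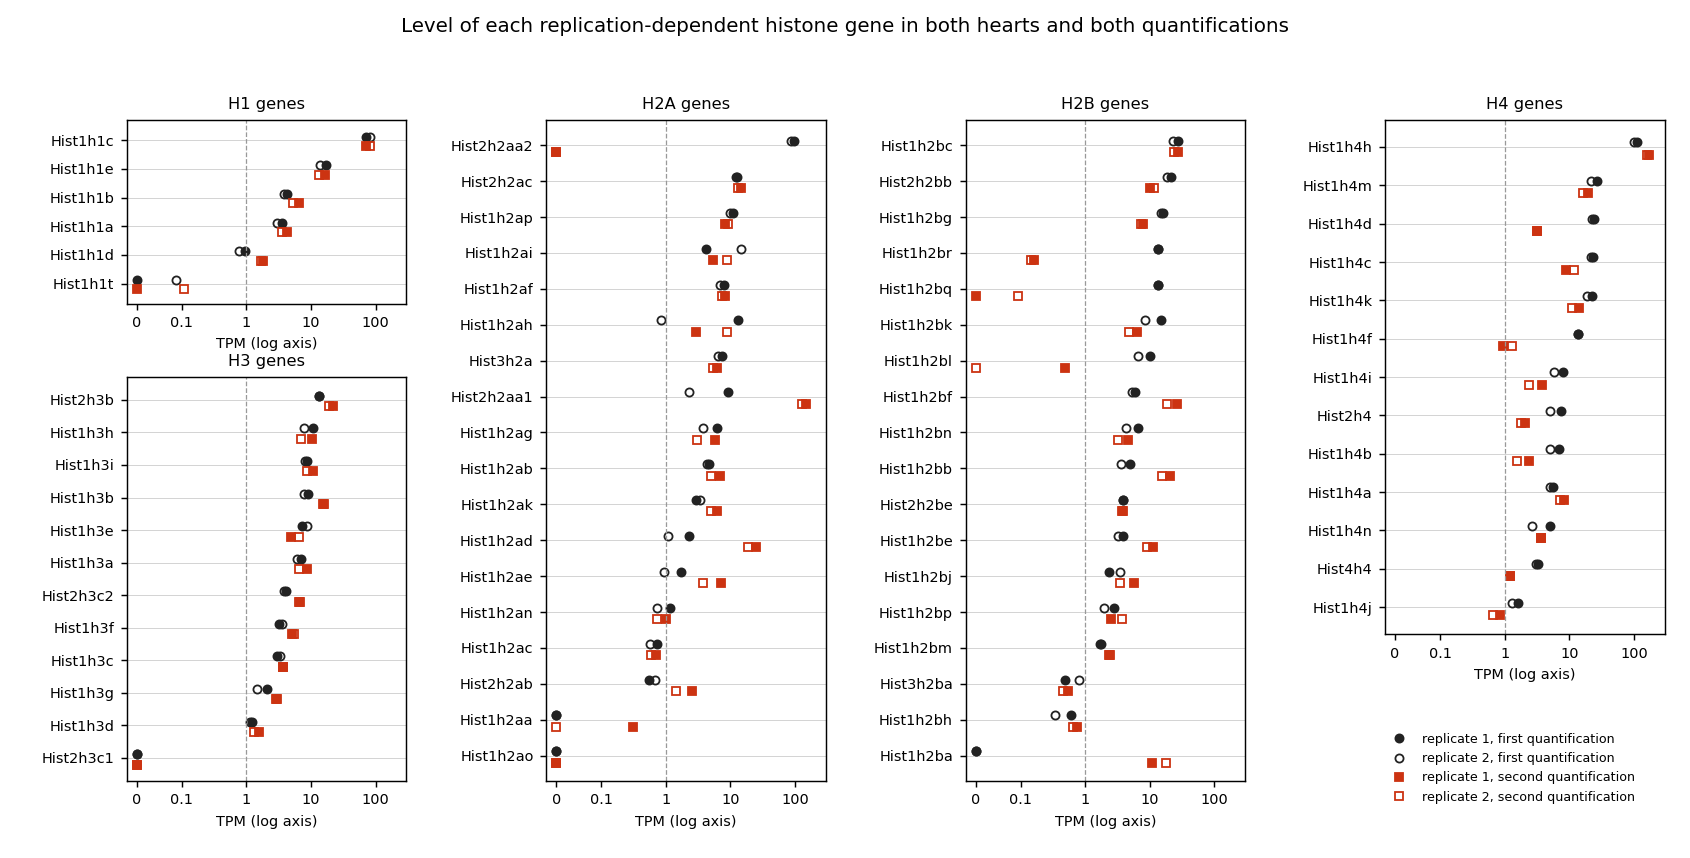
TPM of each of the 67 genes on a log axis, in replicate 1 (filled) and replicate 2 (open), from the first quantification (black circles) and the second (red squares), with values under 0.02 drawn at 0 and the dashed line at 1 TPM. Both hearts lie close together for most genes, while the quantifications part for single genes such as Hist2h2aa1, Hist2h2aa2, Hist1h4d and Hist1h2bq.

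Of the H1 genes, Hist1h1c, which encodes the somatic linker histone H1.2, was the highest. It had 70.9 TPM in replicate 1 and 81.0 TPM in replicate 2, on 3254 and 3602 expected counts. Hist1h1e (H1.4) followed with 16.96 TPM in replicate 1 and 13.7 TPM in replicate 2. These 2 genes lay well above Hist1h1b (H1.5), at 4.30 TPM and 3.83 TPM, and Hist1h1a (H1.1), at 3.52 TPM and 2.97 TPM. Hist1h1d (H1.3) had 219 and 173 expected counts but only 0.95 TPM and 0.78 TPM, since the annotated transcript of 7425 bases divides its reads. Its stem-loop ends 2541 bases from the annotated start. The testis form Hist1h1t, named for its role after its values were seen, had 0 counts in replicate 1 and 2 counts in replicate 2. A count of 0 allows up to 3 counts, or 0.0772 CPM in replicate 1 (counts scaled to the library's total). The family summed to 99.5 ± 4.07 TPM by the first quantification and 102 ± 4.10 TPM by the second.

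Among H2A genes, most of the signal belonged to a pair of copies on chromosome 3 that these reads could hardly separate. Hist2h2aa2 had 96.4 TPM in replicate 1 and 87.4 TPM in replicate 2 by the first quantification, and 0 in both by the second. Its copy Hist2h2aa1 had 9.31 TPM and 2.31 TPM by the first, and 147 TPM and 128 TPM by the second. Every 31-base word of Hist2h2aa2 is also found in Hist2h2aa1, so the sum of the pair is firmer than either copy. The sum is not closed, since genes outside the 67 also hold 100% of the words of Hist2h2aa2 and 89.7% of those of Hist2h2aa1. That sum was 1443 and 1176 expected counts by the first quantification and 1222 and 1035 estimated counts by the second. The pair thus held 97.7 ± 11.3 TPM by the first and 137 ± 13.8 TPM by the second, and was the largest H2A signal in heart by either. Antisense loci overlap both copies, and Gm20634, on the same strand as Hist2h2aa1, shares sequence with it and had 212 and 147 expected counts. Whether the counting used the strand is not given in the sources used here, so reads of these overlapping loci cannot be told apart.

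The remaining H2A genes were lower. Hist2h2ac had 12.4 TPM in replicate 1 and 12.8 TPM in replicate 2, and Hist3h2a on chromosome 11 had 7.30 TPM and 6.34 TPM. The 12 Hist1h2a genes that are linked by at least 50% of shared 31-base words summed to 55.8 TPM in replicate 1 and 46.5 TPM in replicate 2. Their pseudogene Hist1h2al took a further 151 and 135 expected counts in the first quantification and 0 in the second. The lowest detected H2A gene was Hist1h2ad, with 2.30 TPM in replicate 1 and 1.06 TPM in replicate 2 by the first quantification. It stood at 24.7 TPM and 18.6 TPM by the second. Hist1h2aa, a testis form, and Hist1h2ao were at 0 expected counts in both libraries. Both fell outside the rule for named genes and were chosen after their values were seen. The 0 of Hist1h2ao is not firm, since it has the same coding sequence as Hist1h2ap, at 10.96 TPM and 9.79 TPM. These copies share 93.8% of their 31-base words. Only 6.22% of the words of Hist1h2ao are found in no other gene, against 88.3% for Hist1h2aa. The deposited posterior mean counts of Hist1h2ao were 17.16 in replicate 1 and 40.68 in replicate 2.

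The H2B signal was spread over more genes. Hist1h2bc was the highest, with 27.7 TPM in replicate 1 and 23.2 TPM in replicate 2. Its annotated transcript runs into a second exon and holds no stem-loop in the window searched. Both quantifications matched for it, at 25.5 ± 3.20 TPM by the first and 25.3 TPM by the second. Hist2h2bb followed with 21.5 TPM in replicate 1 and 18.7 TPM in replicate 2, and Hist1h2bg with 15.8 TPM and 14.8 TPM. The lowest detected H2B gene was Hist1h2bm, at 1.68 TPM and 1.76 TPM. Hist2h2be had 3.77 TPM in each library on 299 and 289 expected counts, with 97.2% of its 31-base words in no other gene.

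Hist1h2bq and Hist1h2br share 98.3% of their 31-base words. By the first quantification Hist1h2bq had 13.2 TPM in replicate 1 and 13.1 TPM in replicate 2, against 0 and 0.0913 TPM by the second. Hist1h2br had 13.3 TPM in each library by the first, against 0.158 TPM and 0.145 TPM by the second. Hist1h2bl likewise had 10.1 TPM and 6.49 TPM by the first, against 0.480 TPM and 0 by the second. These 3 genes were thus detected by alignment and near 0 by the index. The reverse held for Hist1h2bf, with 5.95 TPM and 5.27 TPM by the first and 26.6 TPM and 18.2 TPM by the second, and for Hist1h2bb, with 4.85 TPM and 3.53 TPM by the first and 20.5 TPM and 15.3 TPM by the second. Hist1h2ba, which encodes the testis H2B, had 0 expected counts in both libraries by the first quantification, and 34.4 and 54.1 estimated counts by the second, or 10.9 TPM and 18.0 TPM. Of its 31-base words, 55.9% are found in no other gene. The 3 testis germ cell markers Tnp1, Prm1 and Prm2 were at 0 in both quantifications.

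The H3 genes had the lowest sum of the octamer families, at 67.4 ± 3.25 TPM. Hist2h3b on chromosome 3 was the highest, with 13.5 TPM in replicate 1 and 13.2 TPM in replicate 2. Hist1h3h, Hist1h3i, Hist1h3b and Hist1h3e followed, each between 7.31 TPM and 10.8 TPM in both libraries. The lowest detected was Hist1h3d, at 1.20 TPM and 1.13 TPM. Hist2h3c1, singled out after its values were seen, has no 31-base word of its own and was at 0 in both quantifications. The 3 Hist2h3 genes together had 282 and 263 expected counts, and 267 and 237 estimated counts by the second quantification. This sum is not closed, since their 31-base words are also found in genes outside the 67. The shares were 100% for Hist2h3c1, 80.6% for Hist2h3b and 64.2% for Hist2h3c2. Gm20634, which overlaps Hist2h3c1 on the same strand, had 212 expected counts in replicate 1 and 147 in replicate 2.

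H4 genes held the largest share of the signal per length, and Hist1h4h was the highest of all 67 genes. It had 112 TPM in replicate 1 and 102 TPM in replicate 2, on 1306 and 1153 expected counts. The second quantification gave it 172 TPM and 161 TPM on fewer counts, 848 and 770.4. Next came Hist1h4m with 27.0 TPM in replicate 1 and 22.1 TPM in replicate 2, Hist1h4d with 24.4 TPM and 22.2 TPM, Hist1h4c with 23.2 TPM and 21.5 TPM, and Hist1h4k with 22.6 TPM and 18.9 TPM. All 13 were detected by the first quantification, where Hist1h4j was the lowest at 1.61 TPM and 1.29 TPM, and 11 by the second. The order of Hist1h4m, Hist1h4d, Hist1h4c and Hist1h4k by the first was within the spread between the hearts. By the second, their means were 17.85 TPM, 3.16 TPM, 10.48 TPM and 12.38 TPM, so the order also depended on the quantification. Levels of some H4 genes depend on annotated transcripts that run far past the stem-loop: of the 1138 annotated bases of Hist1h4d, 770 lie behind it, and of the 2863 bases of Hist4h4, 2445 do.

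By family, H4 took 34.0 ± 0.55% of the summed TPM, H2A 23.5 ± 0.67%, H2B 19.2 ± 0.74%, H1 13.9 ± 1.67% and H3 9.40 ± 0.29%. The shares of the octamer families barely moved between the hearts, while H1 took 12.7% in replicate 1 and 15.1% in replicate 2. By expected counts, which are not divided by length, H1 took 31.9 ± 2.82% and H4 26.4 ± 1.13%. By the second quantification H2A and H4 were level, with 29.6 ± 0.86% and 29.4 ± 0.10% of the TPM. The leading family thus depended on the quantification and the unit, while H3 was the lowest in all of them.

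**Figure D2:**
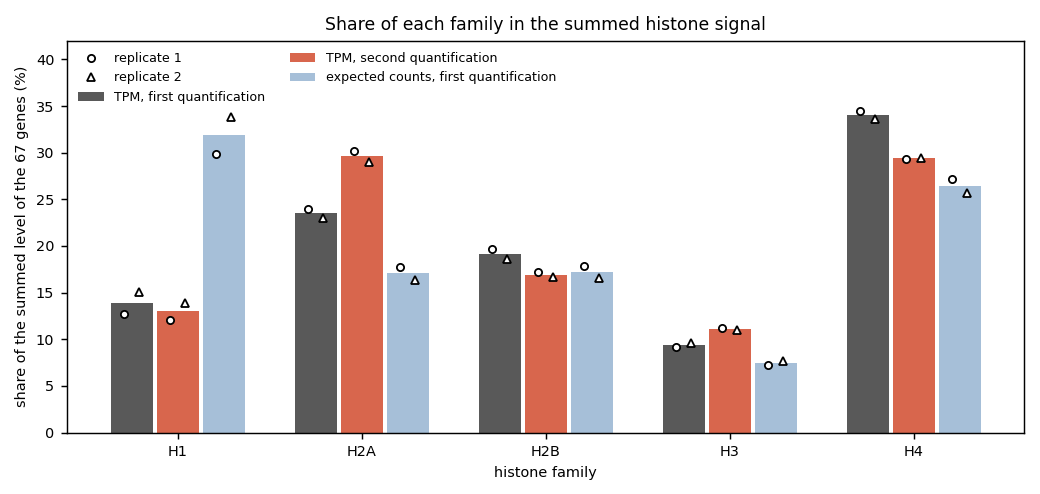
Share of each histone family in the summed level of the 67 genes, in percent, as the mean of both hearts (bars) and in each heart (circles for replicate 1, triangles for replicate 2). H4 leads in TPM of the first quantification (34.0%), H1 leads in expected counts (31.9%), and H3 is the lowest in each.

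The genes listed as replacement variants give the scale for these levels, and H2afx among them had the stem-loop match described above. The replication-dependent genes, at 758 TPM in replicate 1 and 678 TPM in replicate 2, lay above the 11 variant genes, which summed to 397 TPM and 386 TPM. On counts the sums were nearer and their order depended on the quantification. The replication-dependent genes had 15425 and 13808 expected counts by the first, against 13422 and 12664 for the variants. By the second they had 11045 and 10281 estimated counts, against 13528 and 12860 for the variants. On TPM, H3 was the only one of the 3 types compared in which the replication-dependent genes were lower. The 12 replication-dependent H3 genes summed to 67.4 ± 3.25 TPM, while H3f3a, H3f3b and Cenpa summed to 261 ± 6.48 TPM. Replication-dependent genes thus held 20.5 ± 0.38% of the H3 TPM and 12.3 ± 0.01% of the H3 expected counts. Among H2A transcripts they held 65.5 ± 1.56% of the TPM and 47.0 ± 1.37% of the expected counts. Among H1 transcripts they held 70.5 ± 0.08% of the TPM, the other part being nearly all H1f0, the linker histone of resting cells. The highest variant was H3f3a, which encodes H3.3, at 194 TPM in replicate 1 and 182 TPM in replicate 2, and the lowest was H1fx at 0.650 TPM and 0.970 TPM. None of the 11 was called between the hearts, against 1.52% of all genes tested, so this short list says little about stability.

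Most genes of the machinery for these transcripts were detected. Of 18 genes for histone pre-mRNA processing and transcription with a row in the tables, of 21 listed, 17 were detected. Zfp473 had too few counts for the test between the hearts, and none of the other 17 was called, against 1.52% of all genes tested. Slbp, which binds the stem-loop, had 5.40 TPM in replicate 1 and 4.71 TPM in replicate 2. Npat, the coactivator of the clusters, had 3.26 TPM and 2.91 TPM, and Lsm11, a U7 snRNP component that guides the cleavage behind the stem-loop, had 1.64 TPM and 1.43 TPM. The highest of the list was Sympk, a scaffold shared with poly(A) processing, at 31.9 TPM and 31.3 TPM, and the lowest was Zfp473 at 0.06 TPM and 0.02 TPM. Of 25 genes of S phase, 18 were detected, and the median was 1.61 TPM. The highest was the sliding clamp Pcna, at 16.7 TPM and 15.7 TPM, and the lowest was the licensing factor Cdc6, at 0.16 TPM and 0.05 TPM. None of the 23 with enough counts for the test was called, against 1.52% of all genes tested, and Cdc6 and Gins2 were not tested. At that share, the absence of calls in lists this short says little about stability. Of 23 histone chaperones 18 were detected. The highest was Nap1l4, at 67.6 TPM and 69.5 TPM, and the lowest, below detection, was Mms22l at 0.22 TPM and 0.25 TPM. Of the 20 chaperones with enough counts for the test, 1 was called, against 1.52% of all genes tested. This was Asf1b, the chaperone tied to dividing cells, with 1.02 TPM in replicate 1 and 0.430 TPM in replicate 2 on 54 and 22 expected counts. Its log2 ratio was 1.17 (adjusted p = 0.00668, exact binomial test).

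Both hearts matched closely for most histone genes. The counts were compared with an exact two-sided binomial test on TMM-scaled library sizes, and p-values were adjusted over all 13739 genes that reached 50 counts in both libraries together. A call required an adjusted p below 0.05 and a 2-fold ratio. This test compares the reads of 2 libraries, not conditions. Of the 55 histone genes tested, 3 were called, against 1.52% of all genes tested. Of these, 2 were higher in replicate 1, against 0.983% of all genes, and 1 was lower, against 0.539%. The median log2 ratio of replicate 1 over replicate 2 was 0.13, with 42 of 55 above 0, against a median of 0.00 over all genes. On the scale of the spike-ins, which moves every gene by the same amount, the median of the histone genes was -0.12 and that of all genes -0.24. The direction of the histone genes between the hearts thus depends on the scale. The erythroid markers, with a median of 1.60, moved in the same direction as the histone genes on the main scale, and their part in the result was not tested.

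The 3 called genes were all H2A copies. Hist1h2ah had 124 expected counts in replicate 1 and 7.76 in replicate 2, a log2 ratio of 3.77 with a 95% counting interval of 2.83 to 5.10 (adjusted p = 2.31e-24, exact binomial test). Hist2h2aa1 had 143 in replicate 1 and 34.3 in replicate 2, a log2 ratio of 1.95 (1.42 to 2.55, adjusted p = 5.90e-14, exact binomial test). Hist1h2ai went the other way, with 38.9 in replicate 1 and 128 in replicate 2, a log2 ratio of -1.80 (-2.37 to -1.29, adjusted p = 3.24e-12, exact binomial test). All 3 were also called with edgeR's exact test and a common dispersion, which called 1.03% of all genes. That dispersion was estimated from these same libraries taken as 1 group, so it is not a separate check. Each of the 3 genes has close copies: 8.80%, 10.3% and 7.99% of their 31-base words are found in no other gene. The binomial p-values and intervals treat the divided counts as observed reads, so they leave out the error of that division. The authors' deposited posterior standard deviations of their counts in replicate 1 were 26.8, 76.8 and 20.1. In replicate 2 they were 17.09, 60.14 and 20.7, on posterior mean counts of 18.97, 78.8 and 107.32. The deposited TPM intervals of Hist2h2aa1 overlapped, at 1.47 to 20.02 in replicate 1 and 3.19e-05 to 13.3 in replicate 2. Those of Hist1h2ai also did, at 0.145 to 8.19 and 7.04 to 17.02. Those of Hist1h2ah did not, at 6.11 to 17.9 and 9.23e-05 to 5.64.

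The second quantification did not give these differences. There Hist1h2ah had 10.3 estimated counts in replicate 1 and 30.1 in replicate 2, the reverse direction, and its log2 ratio was -1.63. Hist1h2ai had a log2 ratio of -0.80, and both of these genes were under 50 counts there and not tested. Hist2h2aa1 was tested and not called, with a log2 ratio of 0.15. Of the 43 histone genes tested in the second quantification, 0 were called, 10 had an unadjusted p under 0.05 and none of those reached 2-fold. All genes tested there were called at 1.42%. Counts summed over copies that share sequence, an alternative chosen after seeing the data, also gave 0 calls among 20 tested sums and single genes, of which 8 had an unadjusted p under 0.05. The 12 Hist1h2a genes, whose single log2 ratios ran from -1.80 to 3.77, had a ratio of 0.25 in sum (0.08 to 0.42). The Hist2h2aa1 and Hist2h2aa2 pair had 0.19 (0.08 to 0.31), and the 14 linked Hist1h2b genes had 0.21 (0.12 to 0.30).

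**Figure D3:**
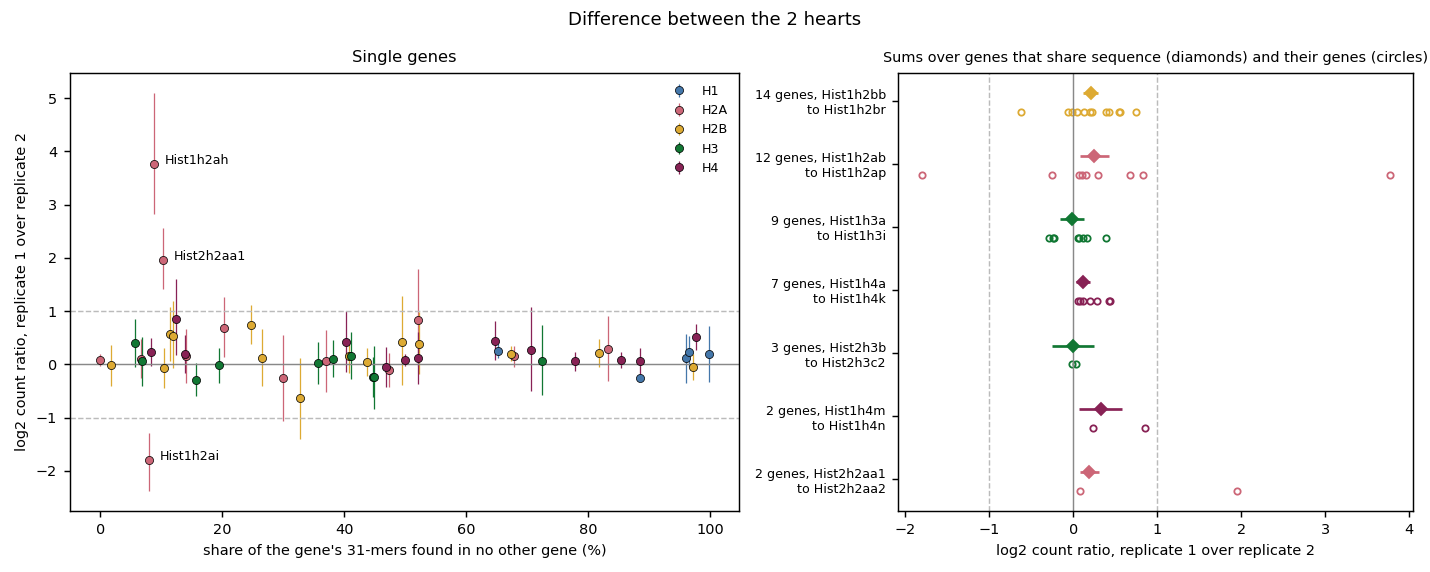
Log2 count ratio of replicate 1 over replicate 2 for the 55 tested genes against the share of their 31-base words found in no other gene (left, bars are 95% counting intervals), and for sums over genes that share sequence (right, diamonds with intervals) beside their single genes (circles); dashed lines mark 2-fold. The 3 called genes all have under 11% of words of their own, and each sum lies within 2-fold.

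A further 5 histone genes passed an adjusted p of 0.05 at under 2-fold, so 8 of 55 passed it in all, against 21.6% of all genes. They were Hist1h1c, Hist1h1e, Hist1h2bc, Hist1h2bk and Hist2h4. Hist1h1c was lower in replicate 1, with a log2 ratio of -0.25 (-0.32 to -0.18, adjusted p = 2.88e-11, exact binomial test), and Hist1h1e was higher, at 0.25 (0.11 to 0.39, adjusted p = 0.00286, exact binomial test). Hist2h4 had 360.0 expected counts in replicate 1 and 235 in replicate 2, and a log2 ratio of 0.51 (0.27 to 0.76, adjusted p = 0.000241, exact binomial test). The second quantification gave Hist2h4 85 and 73 estimated counts. With edgeR's common dispersion, which allows a coefficient of variation of 0.113 between the libraries, none of these 5 genes passed: the adjusted p was 0.544 for Hist1h2bk and 1 for each of the others. That dispersion came from the same libraries taken as 1 group, so it already holds the differences tested. Among the 11 tested genes with over 75% of their words unique, the median log2 ratio was 0.11 and 9 were above 0.

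Levels of single genes differed more between the quantifications than between the hearts. Of the 67 genes, 59 had a mean of at least 1 TPM in either quantification. On TPM, with 0.1 added, 19 of these 59 differed at least 2-fold in the same direction in both libraries. Of them 11 were higher in the first quantification, against 0.483% of 11600 nuclear protein-coding genes at 1 TPM or more, and 8 were lower, against 1.84%. On counts 24 were higher, against 0.690%, and 5 were lower, against 0.784%. The comparison genes were not matched for transcript length. The rank order of the 67 levels was close between the hearts, with a Spearman correlation of 0.92 (first quantification) or 0.96 (second quantification), but it was 0.49 between the quantifications. These correlations describe 67 genes that share reads with each other and are not independent points.

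**Figure D4:**
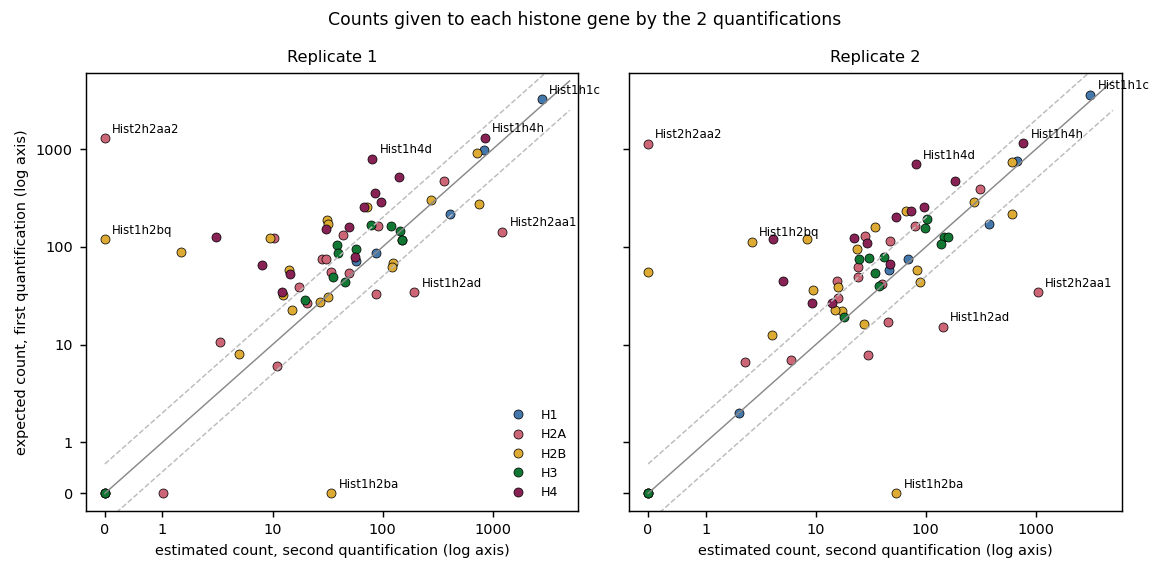
Expected counts of the first quantification against estimated counts of the second for the 67 genes in replicate 1 (left) and replicate 2 (right), on log axes with 0 drawn at the edge; the solid line marks equal counts and dashed lines 2-fold. Most H4 genes lie above the upper dashed line in both hearts, and Hist2h2aa1 and Hist2h2aa2 lie on opposite sides.

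Among H4 genes the difference was in 1 direction. Of the 13, 10 had at least 2-fold more counts in the first quantification in both libraries and none had fewer, and their counts summed to 4199 in replicate 1 and 3539 in replicate 2 by the first, against 1495 and 1389 by the second. Hist1h4d had 797 and 701 expected counts by the first quantification, against 81 estimated counts in each library by the second. Hist1h4f had 125 and 121 by the first, against 3.05 and 4.06 by the second. Hist4h4 had 289 and 258 by the first, against 97.4 and 96.0 by the second. The 10 genes ranged widely in shared sequence: 97.7% of the words of Hist2h4, 88.5% of those of Hist4h4 and 85.3% of those of Hist1h4d are found in no other gene, against 46.8% for Hist1h4f, 13.8% for Hist1h4k and 8.33% for Hist1h4m. For Hist1h4d the deposited posterior standard deviation was 1.78 counts in replicate 1. The counts of the other families in sum were nearer between quantifications, with first-over-second ratios in replicate 1 of 1.10 for H1, 1.25 for H2A, 1.21 for H2B and 1.28 for H3, against 2.81 for H4. Over all nuclear protein-coding genes the ratio was 0.960.

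The count ratio was lower where more of the annotated transcript lay before the end of the stem-loop. It was taken for 35 genes with a stem-loop, a mean of at least 25 expected counts and any count in the second quantification. Hist1h2bp, with no stem-loop in its longer annotated transcript, also met these limits, at a ratio of 1.82, and was left out. Where the stem-loop ended 358 to 399 bases from the transcript start, as in 9 H4 genes, the first quantification gave a median of 3.77 times the counts of the second (2.78 to 34.6). From 418 to 497 bases, the median ratio of 16 genes was 1.76 (0.504 to 4.86). From 503 to 2541 bases, the median of 10 genes was 0.865 (0.0783 to 1.49), with Hist2h2aa1 at the low end. Its copy Hist2h2aa2, at 493 bases, had 0 counts in the second quantification and is not among the 35. The Spearman correlation of the log2 ratio with this length was -0.80 over 35 genes, against -0.37 with the annotated transcript length and -0.08 with the share of unique words. The points share libraries, and family and length go together, since all 9 genes of the shortest class encode H4. Spike-in transcripts, whose length is known, had median ratios of 1.83 at 505 to 523 bases (n = 5), 1.47 at 642 to 994 bases (n = 4) and 1.25 at 1022 to 1994 bases (n = 14). In the deposited tables the effective length of each of the 62 single-transcript histone genes was its length less 99 in the first quantification. In the second it was the length less 326 to 329 for the 22 genes of at least 700 bases. A transcript of 312 bases, that of Hist1h4k, had an effective length of 213 by the first quantification, against 68.1 (replicate 1) and 65.9 (replicate 2) by the second. Whether this difference sets the count ratio was not tested.

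**Figure D5:**
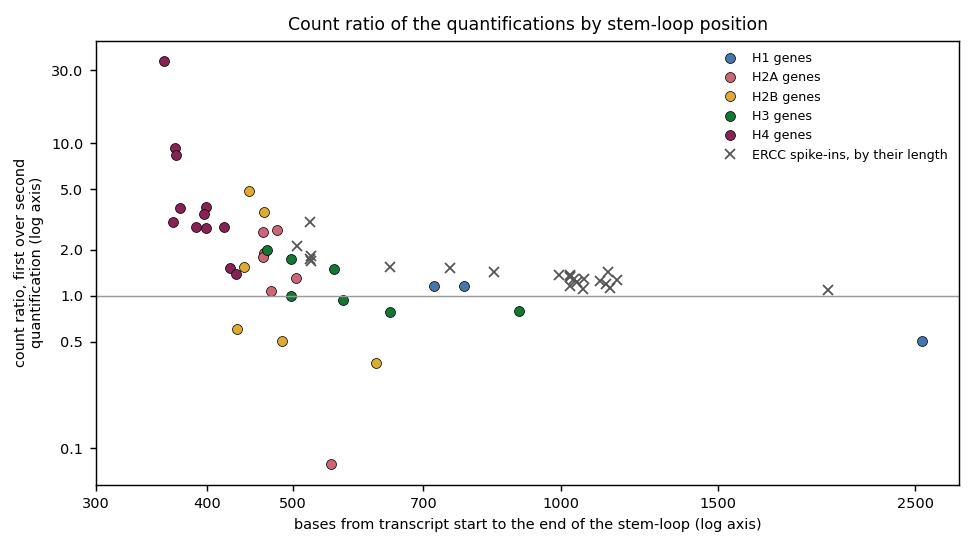
Ratio of counts of the first over the second quantification (mean of both hearts) against the number of bases from the transcript start to the end of the stem-loop, for 35 histone genes coloured by family and for spike-in transcripts by their length (crosses), on log axes. Ratios are 2.78 or more for the 9 H4 genes of 358 to 399 bases, range from 0.504 to 4.86 at 418 to 497 bases, and are at most 1.49 from 503 bases on.

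Many of the genes face each other from a shared start region. Of them, 13 pairs were arranged head to head with 175 to 659 bases between the annotated starts, and 12 of them joined an H2A with an H2B gene. In 8 pairs both genes reached a mean of 1 TPM, and in 5 of these the mean levels lay within 2-fold of each other. This filter left out pairs with a low gene, such as Hist1h2ac and Hist1h2bc below. Whether 5 of 8 is more than among genes that are not paired was not tested. The matches within 2-fold rest in part on copies that were not stable between hearts or quantifications. Hist1h2ah and Hist1h2bk had 12.9 TPM and 14.6 TPM in replicate 1, and 0.83 TPM and 8.38 TPM in replicate 2. Hist1h2bl and Hist1h2ai had 10.1 TPM and 4.21 TPM in replicate 1, and 6.49 TPM and 14.3 TPM in replicate 2. By the second quantification their means were 0.240 TPM and 7.08 TPM. Hist1h2ap and Hist1h2br, with means of 10.4 TPM and 13.3 TPM by the first, had 8.79 TPM and 0.152 TPM by the second. Hist1h2bf and Hist1h2ad, apart by the first at 5.61 TPM and 1.68 TPM, were level by the second at 22.4 TPM and 21.7 TPM. Hist1h2ac and Hist1h2bc, 250 bases apart, were the most unequal of the pairs with counts for both genes, at 0.720 TPM and 0.570 TPM for Hist1h2ac and 27.7 TPM and 23.2 TPM for Hist1h2bc. The upstream regions were alike by family. In windows from 250 bases before to 50 bases after the start, in the RefSeq promoters of GRCm38.p6 for the 61 matched genes and on both strands, CCAAT occurred in 52 genes, or 85.2%, against 37.4% of all 32851 windows. It was in each of the 49 windows of H1, H2A, H2B and H3 genes and in 3 of 12 of H4 genes. The octamer motif ATTTGCAT occurred in 7 of 17 H2A and 6 of 16 H2B windows and in no other, against 1.74% of all windows. TATAAA occurred in 57.4% of the windows, against 13.6% of all. None of the 3 motifs contains another. Windows of head-to-head genes can cover the same bases, so 1 site may be counted for both genes of a pair. A match is a description and not a binding site.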

How the data were processed

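Total RNA libraries from 2 hearts, 1 group, were analysed. Per the deposited description files, the authors quantified reads against mm10 with annotation M21; which programs made them is not given in the sources used here. Values of the first quantification are the deposited expected counts (not normalized, shared reads divided between genes) and the authors' TPM, with columns as RSEM writes them. The second gives deposited estimated counts and TPM per transcript, with columns as kallisto writes them, summed here per gene. The authors' deposited percent of each isoform was read only for the 5 genes with several transcripts. Both used the C57BL/6J reference, so reads of the other parental allele carry mismatches, whose effect was not measured. The members, lists and tests were chosen with earlier results of these data known; full values were to be given for the highest and lowest detected gene of each family, every called gene and up to 12 genes that differed most between quantifications. From other lists, the highest, lowest and called genes were named, with those whose role is given.

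Expected counts, rounded, were compared by an exact binomial test with TMM sizes (edgeR 4.0.16), Benjamini-Hochberg adjusted over 13739 genes. Log2 ratios had 0.5 added to each count. Tested on simulated data for this comparison (13739 genes), it called 50 of 50 genes at a true 3-fold change. It called 0 of 50 at 1.5-fold and 0 of the 13539 left as they were. Since a call requires a 2-fold ratio, these 0 calls largely follow from that limit and say little about the test's error rate. Only counting noise was simulated, not spread between animals or shared reads. DESeq2 1.42.0 size factors, total counts, spike-ins, no filter, other pseudocounts and the second quantification were alternatives. Stem-loops, 31-base words and gaps came from GENCODE M21 transcripts. In the first quantification, 26248 rows named by a number were left out; they held 2.00 and 3.89 counts. A count of 0 allows 3 counts, or 0.0772 CPM in replicate 1 and 0.0786 CPM in replicate 2. Intervals (95%, exact) and limits cover counting error only, since without molecular identifiers PCR copies count as separate reads. The intervals and the binomial p-values also leave out the error of dividing shared reads between copies.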

Additional observations from a re-analysis of the deposited data

How the results depend on the processing

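The number of detected genes stayed within 1.5 times of 54 under each alternative, from 53 in the second quantification to 60 at a threshold of 0.5 TPM. The summed level was 787.7 TPM in the second quantification and 1829 TPM when rescaled to nuclear protein-coding genes. Calls between the hearts numbered 3 under 5 other settings, and 0 in the second quantification and when counts were summed over copies that share sequence. The median log2 ratio was -0.12 on the spike-in scale, which by construction moves all genes alike and put their median at -0.24, so the change of sign is not particular to the histone genes. Hist1h2ah reversed to -1.63 in the second quantification. Genes that differed between quantifications numbered 29 on counts. The share of H1 was 31.9% by expected counts. Those of the second quantification and of expected counts were 29.6% and 17.1% for H2A, 16.9% and 17.2% for H2B, 11.1% and 7.45% for H3, and 29.4% and 26.4% for H4; the cause was not tested. Leaving out a replicate gave 54 to 57 detected genes, a summed level of 678 to 758 TPM, 21 to 25 genes that differed between quantifications, and family shares of 12.7% to 15.1% for H1, 23.0% to 24.0% for H2A, 18.6% to 19.7% for H2B, 9.19% to 9.60% for H3 and 33.6% to 34.4% for H4. No paired analysis was possible because the libraries form a single group. Genes under about 50 summed counts were too shallow to compare. How far depth and shared sequence each limit the levels of near-identical copies was not tested.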
